A study of Mus musculus with 12 samples.

Results

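The 39 genes described here encode the proteins that sense and repair DNA double-strand breaks, and all 39 were found by symbol among the 55487 gene identifiers of each of 2 deposited count tables. They were chosen by name, from what the genes are known to do, but with earlier results of these data known. They fall into 12 genes of break sensing and signalling, 16 of homologous recombination and 11 of end joining. RNA was sequenced from mouse CD8+ T cells of the OT-1 line, a transgenic strain whose CD8 T cells carry 1 receptor for an ovalbumin peptide, in 12 samples that form 4 groups of 3. Female and Male samples were spleen cells of either sex, activated for 3 days with beads against CD3 and CD28 in the presence of IL2. WT and KD samples were another batch of cells, all from males, collected 3 days after electroporation: into KD cells went Cas9 together with a guide RNA against Kdm5d, a histone demethylase gene on the Y chromosome, and into WT cells the guide RNA alone. All 4 groups were cultured with IL2. WT is therefore a name for cells that were electroporated but not cut, and Cas9 and reduced Kdm5d cannot be told apart in KD against WT. The age of the animals, the number of mice and the number of edited cells were not given in the sources used here. Nothing states that the 3 samples of a group came from separate mice or cultures, so the p-values below measure the spread between these samples, which may be technical.

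A double-strand break is recognised by the MRN complex and by the kinases ATM and ATR, which signal through CHK1, CHK2 and p53 and mark the chromatin around the break. Homologous recombination then copies the lost sequence from the sister chromatid and is used after DNA has been replicated, whereas end joining seals the ends directly and serves in every phase of the cell cycle. Activated CD8 T cells divide rapidly, and T cells also depend on the classical end joining proteins earlier in life, when V(D)J recombination assembles their receptor genes. Cas9 makes double-strand breaks at the site its guide RNA matches.

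Total counts ranged from 78748647 to 110803318 per sample. Levels are given as CPM, a gene's share of a sample's counts on a fixed scale, after adjusting the totals by the trimmed mean of M values (TMM), and the lowest count of any of the 39 genes in any sample was 200. Kdm5d, the targeted gene, stood at 48.4, 51.9 and 52.4 CPM in WT and at 21.4, 21.8 and 22.9 CPM in KD, so the groups did not overlap and KD kept 43.3% of the WT mean. An exact two-sided permutation test of these values gave p = 0.1, the smallest that 3 samples against 3 can give. Of the T cell markers, Cd3d, Cd3e, Cd3g, Cd8a and 5 others had a summed level between 2365 and 2804 CPM over all 12 samples. A list of 20 markers of other cells summed to between 39.7 and 54.3 CPM, most of it Pecam1, and Ms4a1, Siglech, Hba-a1 and Hbb-bs were at 0 in every group mean.

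Promoter sequences were looked up because many genes of recombination are known targets of the E2F factors that switch genes on at the entry into S phase. RefSeq windows from 250 bases before to 50 bases after the transcription start (build GRCm38.p6) were at hand for 31 of the 39 genes, in 35 windows. The words TTTCGCGC, TTTGGCGC, TTCCCGCC and TTTCCCGC, variants of the E2F site of which the last pair can overlap, were searched on both strands. At least 1 of them stood in 11 of the 35 windows (31.4%), against 5.93% of the 14590 windows of tested genes and 3.48% of all 32817 windows. By role, they stood in 5 of 10 windows of signalling genes, 4 of 14 of recombination genes and 2 of 11 of end joining genes. The CCAAT box, CCAAT on either strand, stood in 51.4% of the 35 windows against 37.4% of all windows. The cell cycle word TTTGAA stood in 11.4%, against 12.7% of the windows of tested genes and 17.9% of all windows. The p53 consensus was found in none of the 35 windows and in 0.0731% of all windows. The windows of 5 genes that the comparisons below turn on are shown 5′ to 3′ on the strand of the gene, with the E2F-type words and CCAAT boxes in capitals. Brca2 and Rad51c were among the lowest in Male against Female, Chek1 and Xrcc6 are a signalling and an end joining gene with such a word, and Parp1 is a gene without one that was higher in both comparisons.
Brca2 promoter, chr5:150522371-150522670, plus strand: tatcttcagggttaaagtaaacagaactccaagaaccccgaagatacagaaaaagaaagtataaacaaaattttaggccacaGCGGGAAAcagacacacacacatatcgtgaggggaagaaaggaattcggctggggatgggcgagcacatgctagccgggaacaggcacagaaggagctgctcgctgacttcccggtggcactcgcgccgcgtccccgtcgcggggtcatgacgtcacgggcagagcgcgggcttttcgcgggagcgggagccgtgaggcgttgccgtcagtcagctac
Rad51c promoter, chr11:87404905-87405204, minus strand: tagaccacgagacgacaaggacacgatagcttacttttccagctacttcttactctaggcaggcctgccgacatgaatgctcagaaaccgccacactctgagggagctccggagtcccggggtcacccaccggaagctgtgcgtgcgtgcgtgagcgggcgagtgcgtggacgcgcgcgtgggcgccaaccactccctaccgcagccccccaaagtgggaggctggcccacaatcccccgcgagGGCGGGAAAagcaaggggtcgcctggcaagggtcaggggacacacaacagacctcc
Chek1 promoter, chr9:36726609-36726908, minus strand: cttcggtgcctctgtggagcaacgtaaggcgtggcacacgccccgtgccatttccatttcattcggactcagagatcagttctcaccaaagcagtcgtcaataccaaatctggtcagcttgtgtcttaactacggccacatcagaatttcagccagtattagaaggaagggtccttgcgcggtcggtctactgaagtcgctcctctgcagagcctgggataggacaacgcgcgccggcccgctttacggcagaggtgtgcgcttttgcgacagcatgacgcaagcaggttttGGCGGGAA
Xrcc6 promoter, chr15:82016119-82016418, plus strand: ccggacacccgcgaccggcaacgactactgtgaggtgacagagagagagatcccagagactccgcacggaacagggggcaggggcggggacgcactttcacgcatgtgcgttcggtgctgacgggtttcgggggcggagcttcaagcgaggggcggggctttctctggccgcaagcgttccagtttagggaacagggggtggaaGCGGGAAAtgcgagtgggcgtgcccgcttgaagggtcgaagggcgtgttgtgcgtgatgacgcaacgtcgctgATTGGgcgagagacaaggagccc
Parp1 promoter, chr1:180568641-180568940, plus strand: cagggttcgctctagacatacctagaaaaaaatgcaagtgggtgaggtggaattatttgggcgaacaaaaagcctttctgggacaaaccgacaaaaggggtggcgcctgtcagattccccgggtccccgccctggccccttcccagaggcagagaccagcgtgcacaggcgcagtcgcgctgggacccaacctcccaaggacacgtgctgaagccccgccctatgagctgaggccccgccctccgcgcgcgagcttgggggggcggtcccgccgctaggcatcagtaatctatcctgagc

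A match to these letters is a description of the window and not a site of binding. The word in the Brca2 window began 168 bases before the start, that of Xrcc6 began 46 bases before it, and that of Chek1 lay 43 bases into the transcribed part. In the Rad51c window TTCCCGCC and TTTCCCGC overlapped on the reverse strand, from 6 bases before the start onwards. Rad51c has another RefSeq window, which also holds a word and is not shown.

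KD against WT asked how cells given Cas9 with the Kdm5d guide RNA differed from cells given the guide RNA alone. Most of the break repair genes that differed were slightly higher in KD. Of the 39 genes, 22 rose and 4 fell at an adjusted p under 0.05 (edgeR's quasi-likelihood test, Benjamini-Hochberg adjustment over all 20413 genes tested), and 13 did not pass. Over all genes tested, 35.1% were called, 16.8% higher and 18.4% lower. The KD and WT samples did not overlap in 23 genes that were higher and 5 that were lower in KD, against 46.8% of all genes tested. The 39 genes are well expressed, and among genes whose average log2 CPM was 1 or more, tested alone, 54.3% were called, against 27 of the 39 (69.2%). Shares of roles and lists given below are from the fit over all genes tested, so 54.3% is not a like measure for them. The changes were small: log2 fold changes ran from -0.31 to 0.37 with a median of 0.12, against a median of 0.01 over all genes tested, and none of the 39 reached a called difference of 1 on the log2 scale, which 3.96% of all genes tested did. In bulk RNA, more cells of a kind and more RNA per cell cannot be told apart. At an adjusted p under 0.01 the count was 16, and without WT replicate 3 it was 17, of which 15 were higher and 2 lower.

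**Figure D1:**
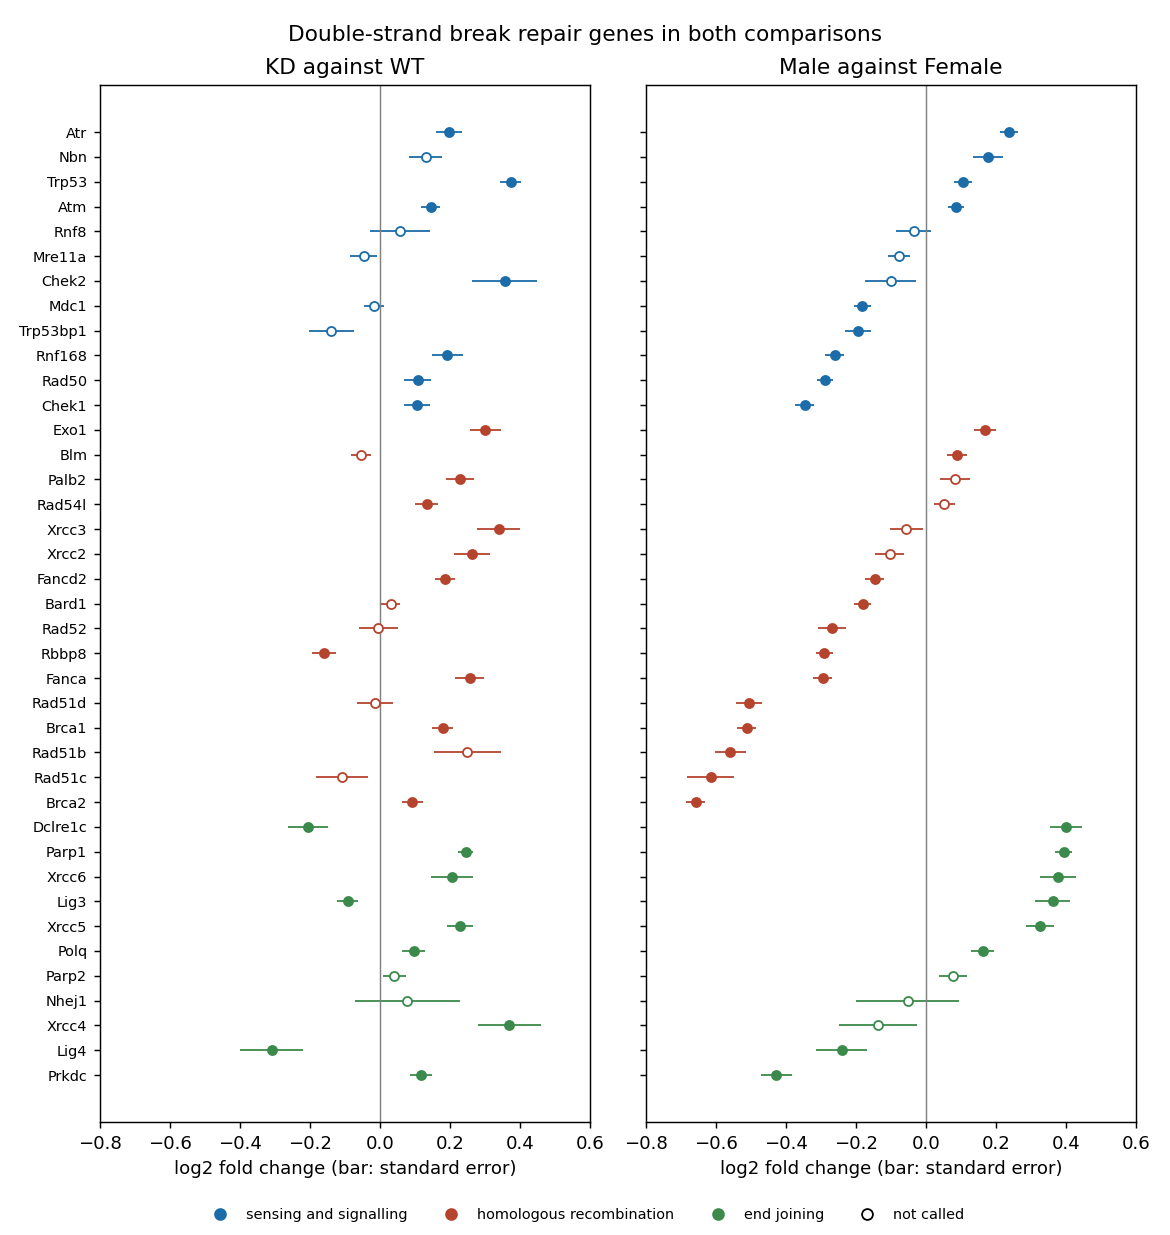
Log2 fold change of each of the 39 genes (points) with its standard error (bars) in KD against WT and in Male against Female, coloured by role and open where the gene was not called, with 3 samples a group. All points lie between -0.66 and 0.40, and the recombination genes with the lowest values in Male against Female are Brca2, Rad51c and Rad51b.

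Among the signalling genes, 7 of 12 rose in KD and none fell, with a median log2 fold change of 0.12. The share called was 58.3%, against 35.1% of all genes tested and 54.3% of those with an average log2 CPM of 1 or more. Trp53, which encodes the transcription factor p53, stood at 134, 132 and 129 CPM in WT and at 169, 177 and 166 CPM in KD. All 3 KD samples lay above all 3 WT samples, and the difference of 0.37 ± 0.030 (log2, SE) had an adjusted p of 5.66e-06 by edgeR. Part of the Trp53 sequence is not its own: 10.1% of its 31-base words occur elsewhere in the annotated transcripts, so some of its reads could have been placed with other copies. Atm, the kinase that responds to double-strand ends, stood at 136, 140 and 138 CPM in WT and at 149, 151 and 157 CPM in KD. Its log2 fold change was 0.14 ± 0.026 (SE; edgeR adjusted p = 0.00167), and again no KD sample fell among the WT samples. Atr, the kinase that responds to single-stranded DNA at resected ends and stalled forks, stood at 77.7, 79.5 and 76.4 CPM in WT and at 92.8, 84.9 and 90.2 CPM in KD. The Atr groups did not overlap either, a difference of 0.20 ± 0.037 on the log2 scale (SE; edgeR adjusted p = 0.00181).

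The checkpoint kinases and the ubiquitin ligase Rnf168, which marks chromatin beside the break, were called in the same direction. Rnf168 stood at 47.6, 53.2 and 51.1 CPM in WT and at 58.4, 55.9 and 59.2 CPM in KD (log2 fold change 0.19, edgeR adjusted p = 0.00736). Chek1, which encodes the kinase activated by ATR, stood at 40.8, 42.0 and 39.7 CPM in WT and at 44.4, 44.2 and 43.2 CPM in KD (log2 fold change 0.11, edgeR adjusted p = 0.0442). Chek2, which encodes the kinase activated by ATM, stood at 11.1, 14.7 and 12.3 CPM in WT and at 15.5, 16.4 and 16.9 CPM in KD (log2 fold change 0.36, edgeR adjusted p = 0.0128). In each of the 3 genes the KD samples lay above the WT samples, but the Chek1 call was lost in 6 of 18 alternative settings and the Chek2 call in 1. The MRN genes were near the threshold: Rad50 rose by 0.11 (log2) with an adjusted p of 0.0496 by edgeR, a call lost in 9 of 18 alternative settings. Nbn had a value of 0.13 with an adjusted p of 0.0591 and passed in 9 of 18 settings, and Mre11a, the nuclease of the complex, had a value of -0.05 and overlapping groups. The adaptors that gather at marked chromatin did not pass: Trp53bp1 had a log2 fold change of -0.14 and Mdc1 one of -0.02. Rnf8, the ligase that acts before Rnf168, had a value of 0.06, and its 3 WT and 3 KD samples overlapped.

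Of the 16 recombination genes, 9 rose in KD and 1 fell, with a median log2 fold change of 0.16. The share called was 62.5%, against 35.1% of all genes tested and 54.3% of those with an average log2 CPM of 1 or more. Exo1, a nuclease that resects broken ends, stood at 57.3, 55.3 and 54.3 CPM in WT and at 72.1, 64.4 and 69.2 CPM in KD. At 0.30 ± 0.044 on the log2 scale (SE; edgeR adjusted p = 0.000383), Exo1 had the smallest p of this group. Fanca, a subunit of the Fanconi anaemia core complex, stood at 60.0, 61.1 and 59.8 CPM in WT and at 68.9, 76.6 and 70.5 CPM in KD. Fancd2, the protein that this complex ubiquitinates, stood at 54.4, 54.0 and 54.4 CPM in WT and at 62.5, 61.0 and 61.7 CPM in KD. Both Fanconi genes were separated between the groups, with log2 fold changes of 0.26 ± 0.041 for Fanca and 0.19 ± 0.029 for Fancd2 (SE; edgeR adjusted p = 0.000727 and 0.000665).

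Brca1, which encodes the ubiquitin ligase subunit that favours resection, stood at 81.2, 79.2 and 81.6 CPM in WT and at 92.5, 88.8 and 92.6 CPM in KD. Its KD samples were all above its WT samples, a difference of 0.18 ± 0.029 on the log2 scale (SE; edgeR adjusted p = 0.00082). Brca2, which encodes a central mediator of recombination, stood at 63.9, 61.7 and 63.8 CPM in WT and at 68.7, 66.7 and 66.5 CPM in KD. The Brca2 groups did not overlap, but the difference was 0.09 ± 0.031 (log2, SE; edgeR adjusted p = 0.0418) and the call was lost in 7 of 18 alternative settings. Bard1, the partner of BRCA1, did not pass, at 116, 121 and 118 CPM in WT and 120, 120 and 124 CPM in KD. Palb2, which bridges BRCA1 and BRCA2, rose by 0.23 and Rad54l, a DNA translocase, rose by 0.13 (log2; edgeR adjusted p = 0.00153 and 0.00932), the Rad54l call being lost in 1 of 18 settings. Among the recombination genes Xrcc2, Xrcc3, Rad51b, Rad51c and Rad51d, Xrcc3 rose by 0.34 and Xrcc2 by 0.26 (log2; edgeR adjusted p = 0.00142 and 0.00264), while Rad51b, Rad51c and Rad51d did not pass, at 0.25, -0.11 and -0.01. Rad52 did not pass, at 99.7% of the WT mean, nor did the helicase gene Blm, at -0.06. Rbbp8 was the exception in direction. It encodes CtIP, the partner of MRN that starts resection, and stood at 64.1, 67.9 and 63.9 CPM in WT and at 58.1, 57.9 and 59.4 CPM in KD. Every KD sample lay below every WT sample (log2 fold change -0.16, edgeR adjusted p = 0.00445), and the call held in all 18 alternative settings.

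Of the 11 end joining genes, 6 rose in KD and 3 fell, with a median log2 fold change of 0.10. The share called was 81.8%, against 35.1% of all genes tested and 54.3% of those with an average log2 CPM of 1 or more. Parp1, which encodes the poly(ADP-ribose) polymerase that binds broken DNA and serves the alternative pathway, stood at 175, 177 and 177 CPM in WT and at 212, 209 and 205 CPM in KD. The 3 KD samples lay far outside the narrow WT range, a difference of 0.24 ± 0.022 on the log2 scale (SE; edgeR adjusted p = 1.31e-05). Xrcc5, the gene of the larger Ku subunit, stood at 42.0, 43.5 and 44.5 CPM in WT and at 49.5, 51.3 and 51.4 CPM in KD. Xrcc6, the gene of the smaller Ku subunit, stood at 30.6, 36.4 and 32.8 CPM in WT and at 37.3, 38.4 and 39.4 CPM in KD. Both Ku genes were thus higher in every KD sample, by 0.23 ± 0.036 and 0.21 ± 0.059 (log2, SE; edgeR adjusted p = 0.000708 and 0.0217), and the Xrcc6 call was lost in 4 of 18 alternative settings.

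Prkdc, which encodes the catalytic subunit of the DNA-dependent kinase that Ku recruits, stood at 85.2, 82.4 and 85.9 CPM in WT and at 93.9, 88.7 and 92.5 CPM in KD (log2 fold change 0.12, edgeR adjusted p = 0.0149). Xrcc4, the scaffold of the ligation step, was one of the lowest of the 39 genes in counts, at 5.11, 4.62 and 5.14 CPM in WT and 6.68, 6.10 and 6.43 CPM in KD (log2 fold change 0.37, edgeR adjusted p = 0.00922). Neither gene had overlapping groups, and both lay above WT in all 3 KD samples, but the Prkdc call was lost in 2 of 18 alternative settings. Lig4, the ligase that XRCC4 holds, went the other way, at 8.51, 7.48 and 7.03 CPM in WT and 6.19, 6.36 and 6.03 CPM in KD (log2 fold change -0.31, edgeR adjusted p = 0.0228). Dclre1c, the gene of the nuclease Artemis, fell by 0.21 (log2, edgeR adjusted p = 0.0166), and its call was lost in 3 of 18 alternative settings and that of Lig4 in 4. Nhej1, the gene of XLF, had few counts, at 2.06 to 2.81 CPM over the 6 samples, and its value of 0.08 had an SE of 0.15. In the alternative pathway Polq, the gene of DNA polymerase theta, rose by 0.10 (adjusted p = 0.0411) and Lig3, a ligase, fell by 0.09 (adjusted p = 0.0372), both by edgeR and both lost in 8 of 18 alternative settings. Parp2, a second polymerase of ADP-ribose, did not pass, at 0.04. Of the merged exons of Lig3, 25.1% lie opposite exons of Rffl, and whether strand was used in counting was not given in the sources used here, so its reads and those of Rffl may be mixed. The same holds to a smaller degree for Rad54l (15.4%, opposite Lrrc41), Trp53bp1 (15.0%, opposite Tubgcp4) and Fanca (10.5%, opposite Zfp276). Of the merged exons of Rnf8, 13.2% overlap those of Gm28043 on the same strand.

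**Figure D2:**
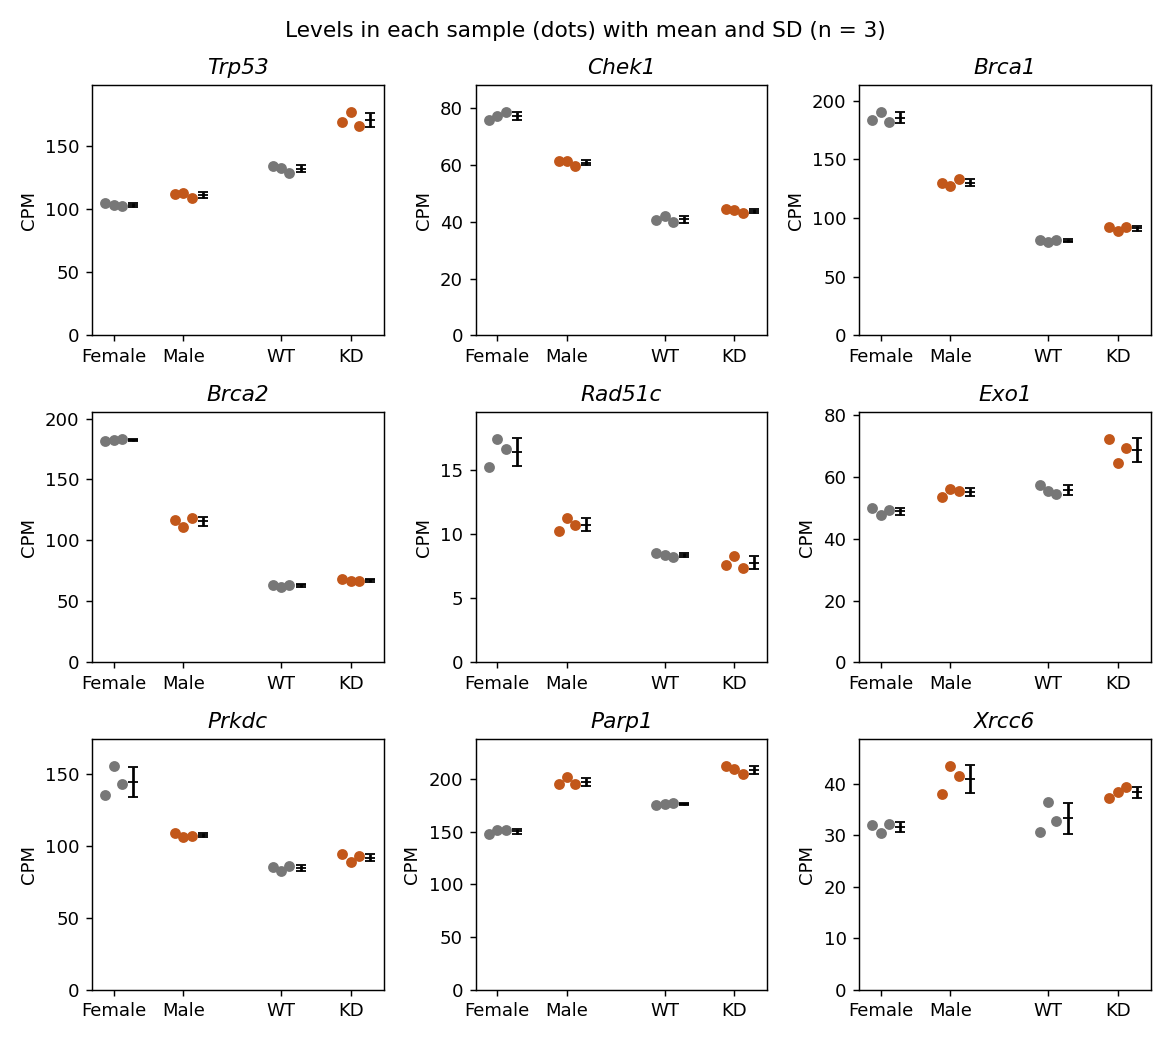
CPM in each sample (dots) with the mean and SD of the 3 samples (bars) for 9 of the genes in Female, Male, WT and KD, each panel on its own axis from 0. Trp53 and Parp1 are higher in KD than in WT, Brca2 falls from at least 181 CPM in Female to at most 119 CPM in Male, and Female and Male were not tested against WT and KD, which are another batch and table.

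Male against Female asked how activated CD8 T cells of the sexes differ. Among the 39 genes, 10 of 16 recombination genes were lower in Male and 6 of 11 end joining genes higher; the difference between roles was not tested. Of the 39 genes, 12 were called higher and 17 lower in Male (edgeR, adjusted p under 0.05 over 20208 genes tested), where 49.8% of all genes tested were called, 23.5% higher and 26.3% lower. Among genes whose average log2 CPM was 1 or more, tested alone, 71.6% were called, against 32 of the 39 (82.1%). Here too the shares of roles and lists below are from the fit over all genes tested, so 71.6% is not a like measure for them. Log2 fold changes ran from -0.66 to 0.40, and none of the 39 reached 1, which 7.28% of all genes tested did. The groups did not overlap in 12 genes that were higher and 20 that were lower in Male, against 58.3% of all genes tested. The median was -0.22 for recombination, -0.09 for signalling and 0.16 for end joining, against 0.01 over all genes tested. After removal of the trends with transcript length and GC content, the medians were -0.12, -0.02 and 0.24, and without Female replicate 2 the signalling median was -0.06.

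Of the 16 recombination genes, 10 were lower in Male and 2 higher. The share called was 75%, against 49.8% of all genes tested and 71.6% of those with an average log2 CPM of 1 or more. Brca2 stood at 181, 183 and 183 CPM in Female and at 117, 111 and 119 CPM in Male. Male samples kept 63.4% of the Female mean, with no overlap, and the difference of -0.66 ± 0.028 on the log2 scale (SE; edgeR adjusted p = 2.08e-08) was the lowest of the 39; it was -0.48 after removal of the length and GC trends. Brca1 stood at 184, 191 and 182 CPM in Female and at 130, 127 and 133 CPM in Male. The Brca1 groups were as clearly apart, a difference of -0.51 ± 0.027 on the log2 scale (SE; edgeR adjusted p = 9.34e-08). Rad51b, Rad51c and Rad51d, further recombination genes, were lower in the same way. Rad51b stood at 21.7, 21.1 and 21.9 CPM in Female and at 14.6, 14.9 and 14.4 CPM in Male. Rad51c stood at 15.3, 17.4 and 16.6 CPM in Female and at 10.2, 11.2 and 10.7 CPM in Male. Rad51d stood at 40.5, 39.9 and 38.6 CPM in Female and at 28.6, 27.8 and 27.4 CPM in Male. None of the 3 had overlapping groups, and their log2 fold changes were -0.56, -0.61 and -0.51 (edgeR adjusted p = 2.46e-06, 2.54e-05 and 1.13e-06). Xrcc2 and Xrcc3 did not pass, at -0.10 and -0.06, although every Male sample was below every Female sample in both.

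Rbbp8 (-0.29), Fanca (-0.30), Rad52 (-0.27), Bard1 (-0.18) and Fancd2 (-0.15) were also lower in Male on the log2 scale. Removal of the length and GC trends moved Rbbp8 and Fanca to -0.12 each. The Fancd2 call was lost in 2 of 18 alternative settings, those that removed the length and GC trends. Exo1 and Blm were the recombination genes called higher, by 0.17 and 0.09 (log2; edgeR adjusted p = 0.00127 and 0.0219), and the Blm call was lost in 6 of 18 settings. With the length and GC trends removed they stood at 0.28 and 0.21. Palb2 and Rad54l did not pass, at 0.08 and 0.05, but each passed in 3 of 18 alternative settings. Over these settings their values reached 0.17 and 0.15.

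Among the signalling genes, 4 were higher and 5 lower in Male. The share called was 75%, against 49.8% of all genes tested and 71.6% of those with an average log2 CPM of 1 or more. Chek1 stood at 76.0, 77.3 and 78.7 CPM in Female and at 61.4, 61.4 and 59.7 CPM in Male. Rad50, the coiled-coil subunit of MRN, stood at 124, 121 and 126 CPM in Female and at 102, 101 and 100 CPM in Male. Both genes were lower in all 3 Male samples, by log2 fold changes of -0.35 ± 0.026 and -0.29 ± 0.024 (SE; edgeR adjusted p = 1.48e-06 and 3.04e-06). Rnf168 stood at 71.5, 74.4 and 71.9 CPM in Female and at 61.7, 59.8 and 60.3 CPM in Male (log2 fold change -0.26, edgeR adjusted p = 1.77e-05). The adaptors Trp53bp1 and Mdc1 were also lower, at -0.19 and -0.18 (log2), but once the length and GC trends were removed Trp53bp1 stood at -0.01 (adjusted p = 0.858) and Mdc1 at -0.07. The Trp53bp1 call was lost in 2 of 18 alternative settings and the Mdc1 call in 1. The kinases upstream went the other way. Atr stood at 114, 114 and 116 CPM in Female and at 138, 133 and 134 CPM in Male, and Atm at 206, 212 and 212 CPM in Female and at 222, 220 and 225 CPM in Male. Their groups did not overlap, with log2 fold changes of 0.24 ± 0.025 for Atr and 0.09 ± 0.022 for Atm (SE; edgeR adjusted p = 1.69e-05 and 0.00806). Removal of the length and GC trends moved them to 0.44 for Atr and 0.23 for Atm. Trp53 stood at 105, 103 and 102 CPM in Female and at 112, 113 and 109 CPM in Male (log2 fold change 0.11, edgeR adjusted p = 0.00536), and Nbn was higher by 0.18, a call lost in 2 of 18 settings. Chek2 (-0.10), Rnf8 (-0.04) and Mre11a (-0.08) did not pass, and Rnf8, which shares 16.8% of its 31-base words with other transcripts, stood at 0.14 with an adjusted p of 0.0452 after removal of the length and GC trends.

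Of the 11 end joining genes, 6 were higher and 2 lower in Male. The share called was 72.7%, against 49.8% of all genes tested and 71.6% of those with an average log2 CPM of 1 or more. Of the 7 genes of the classical pathway, 3 were higher and 2 lower (median log2 fold change -0.05). Of the 4 of the alternative pathway, 3 were higher and none lower (median 0.26). These are 71.4% and 75% called, against 49.8% of all genes tested in the same fit. Genes with an average log2 CPM of 1 or more, tested alone in another fit, gave 71.6%. The difference between the pathways was not tested. Parp1 stood at 148, 152 and 152 CPM in Female and at 196, 202 and 195 CPM in Male. That is a difference of 0.39 ± 0.024 on the log2 scale (SE; edgeR adjusted p = 2.71e-07), with all 3 Male samples above all 3 Female samples. Xrcc5 stood at 43.0, 39.5 and 43.8 CPM in Female and at 53.1, 52.1 and 53 CPM in Male, and Xrcc6 at 32.1, 30.5 and 32.1 CPM in Female and at 38, 43.4 and 41.5 CPM in Male. The Ku genes were higher together, by 0.32 ± 0.041 and 0.38 ± 0.051 (log2, SE; edgeR adjusted p = 6.73e-05 and 0.000113). Prkdc, whose protein acts with Ku, was lower: it stood at 135, 155 and 142 CPM in Female and at 109, 106 and 106 CPM in Male. Its log2 fold change was -0.43 ± 0.044 (SE; edgeR adjusted p = 1.59e-05) and -0.25 after removal of the length and GC trends. Dclre1c stood at 21.9, 23.9 and 21.8 CPM in Female and at 29.3, 29.5 and 30.5 CPM in Male, with no overlap (log2 fold change 0.40, edgeR adjusted p = 3.69e-05). Lig3 and Polq were higher by 0.36 and 0.16 (log2; edgeR adjusted p = 0.000135 and 0.0022). Here too the reads of Lig3 may be mixed with those of Rffl. With the length and GC trends removed Polq stood at 0.30. Lig4 was lower, at -0.24 (edgeR adjusted p = 0.0179), a call lost in 2 of 18 settings, and Xrcc4, Nhej1 and Parp2 did not pass, at -0.14, -0.05 and 0.08.

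**Figure D3:**
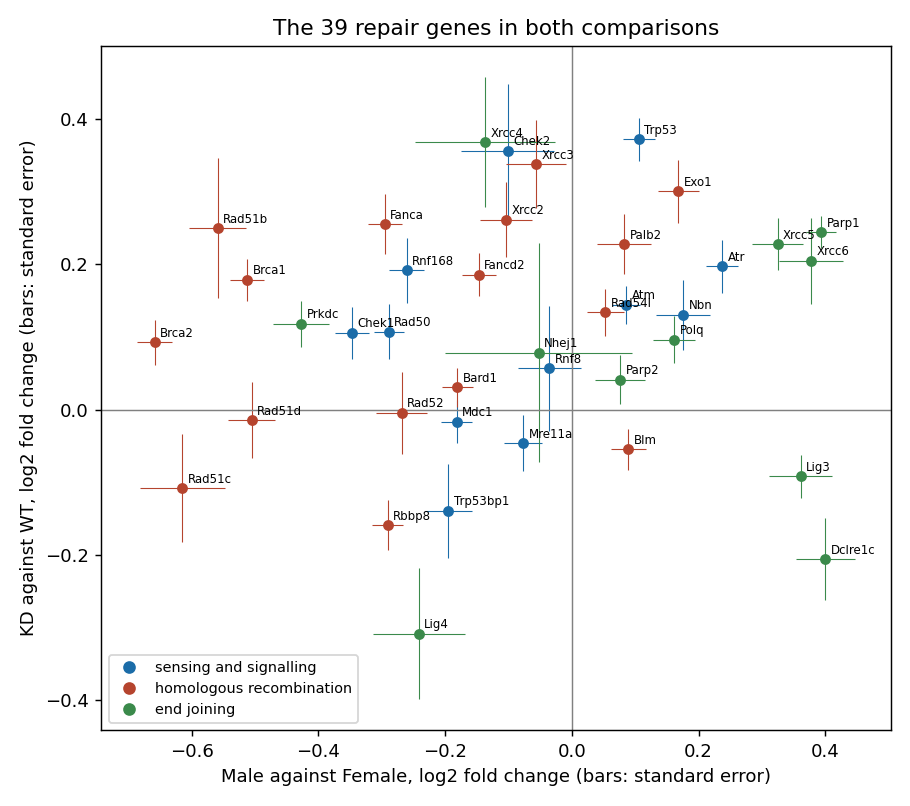
Log2 fold change of each of the 39 genes in Male against Female (horizontal axis) and in KD against WT (vertical axis), coloured by role, with bars for the SE. The 2 comparisons share no samples. Parp1, Xrcc5 and Xrcc6 lie at positive values on both axes, and Brca1, Chek1 and Prkdc lie above 0 on the vertical axis and below 0 on the horizontal axis.

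Set side by side, the comparisons called 8 genes higher in both KD and Male: Atm, Atr, Trp53, Exo1, Xrcc5, Xrcc6, Polq and Parp1. Another 8 were higher in KD and lower in Male, namely Chek1, Rnf168, Rad50, Brca1, Brca2, Fancd2, Fanca and Prkdc. Rbbp8 and Lig4 were lower in both, and Dclre1c and Lig3 were lower in KD and higher in Male. A further 6 genes were called only in KD against WT (Chek2, Palb2, Rad54l, Xrcc2, Xrcc3 and Xrcc4), and in Male against Female alone Nbn and Blm were called higher and 7 genes lower. Rnf8, Mre11a, Nhej1 and Parp2 were called in neither. Being called in one comparison and not in the other does not show a difference between them, which was not tested. Taken singly, 22 of the 39 genes were higher and 4 lower in KD, and 12 higher and 17 lower in Male. Over all genes tested, 16.8% were higher and 18.4% lower in KD, and 23.5% and 26.3% in Male. No share called in both comparisons over all genes is given here. Whether the joint groups exceed what the single counts give was not tested.

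Over all genes tested, 35.1% were called in KD and 49.8% in Male. Of those with an average log2 CPM of 1 or more, 54.3% and 71.6% were called. Beside these shares, the genes with an E2F-type word in the promoter window were set against those without. The difference between them was not tested, and genes with no window at hand were left out. Of the 10 genes with such a word, 6 rose and none fell in KD (median log2 fold change 0.09), and 2 were higher and 6 lower in Male (median -0.18). Of the 21 genes whose windows lack the words, 11 rose and 3 fell in KD (median 0.14), and 8 were higher and 6 lower in Male (median 0.05). Brca2, Rad51c and Chek1, whose windows are printed above with a word, were called lower in Male, and Xrcc6, which also has one, was called higher. Brca1, with no such word in its window, was lower as well.

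Levels of different genes were compared per kilobase of merged exons. Parp1, Trp53 and Bard1 led in every group: in WT they stood at 33.3, 32.5 and 21 CPM per kilobase, and in Female Parp1 stood at 28.4, Bard1 at 25.8 and Trp53 at 25.5. In KD Trp53 led with 42.1 CPM per kilobase, ahead of Parp1 with 39.5. Xrcc4, Rnf8 and Lig4 were the lowest in every group, with Xrcc4 at 1.18 CPM per kilobase in WT and Lig4 at 1.19 in KD. The rank of Rnf8 depends on its long merged exons of 11703 bases. Before division by length its WT mean was 16.3 CPM, against 2.41 CPM for Nhej1. The median over the 39 genes was 6.84 CPM per kilobase in WT, 7.78 in KD, 10.2 in Female and 8.30 in Male.

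Other genes of the same pathways were read from lists of 94 further names, of which 92 were tested. In KD 32 of them rose and 14 fell (median log2 fold change 0.04), and in Male 25 were higher and 35 lower (median -0.03). That is 50% and 65.2% called, above the 35.1% and 49.8% of all genes tested in the same fits. Genes with an average log2 CPM of 1 or more gave 54.3% and 71.6%. Those shares come from other fits with a stricter filter, so they are not a like measure. Among the signalling genes of these lists, Wee1, the kinase that holds CDK1 inactive, rose by 0.40 and Rnf169, which competes for the chromatin mark set by RNF168, rose by 0.33 in KD (log2; edgeR adjusted p = 8.07e-06 and 4.07e-05). Babam2, a scaffold of the BRCA1-A complex, fell by 0.48 in KD (log2, edgeR adjusted p = 5.14e-06) and was lower in Male at -0.41. Rnf169 was lower in Male, at 109, 113 and 110 CPM in Female against 65.7, 70.6 and 68.3 CPM in Male, and H2afx, the gene of the histone that ATM phosphorylates, was higher by 0.47 (log2). In recombination, Dna2, a resection nuclease, rose from 44.6, 43.7 and 43.9 CPM in WT to 56.7, 57.4 and 57.0 CPM in KD, and was higher in Male by 0.74 (log2, edgeR adjusted p = 2.8e-08). Of the 15 further Fanconi anaemia genes, 6 rose and none fell in KD, while 3 were higher and 7 lower in Male. The further recombination and end joining lists were more even. Of 34 further recombination genes, 12 rose and 7 fell in KD (median 0.02), and 12 were higher and 13 lower in Male (median 0.02). Of 16 further end joining genes, 4 rose and 4 fell in KD (median -0.06), and 5 were higher and 5 lower in Male (median 0.04). Of 27 further signalling genes, 10 rose and 3 fell in KD, and 5 were higher and 10 lower in Male. In end joining, Paxx, which stabilises Ku-dependent joining, was lower in both comparisons, at -0.34 in KD and -0.68 in Male (log2; edgeR adjusted p = 0.00274 and 1.12e-06). Fen1, a flap nuclease, was higher in both, by 0.43 and 0.56 (log2; edgeR adjusted p = 0.000432 and 0.00121).

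**Figure D4:**
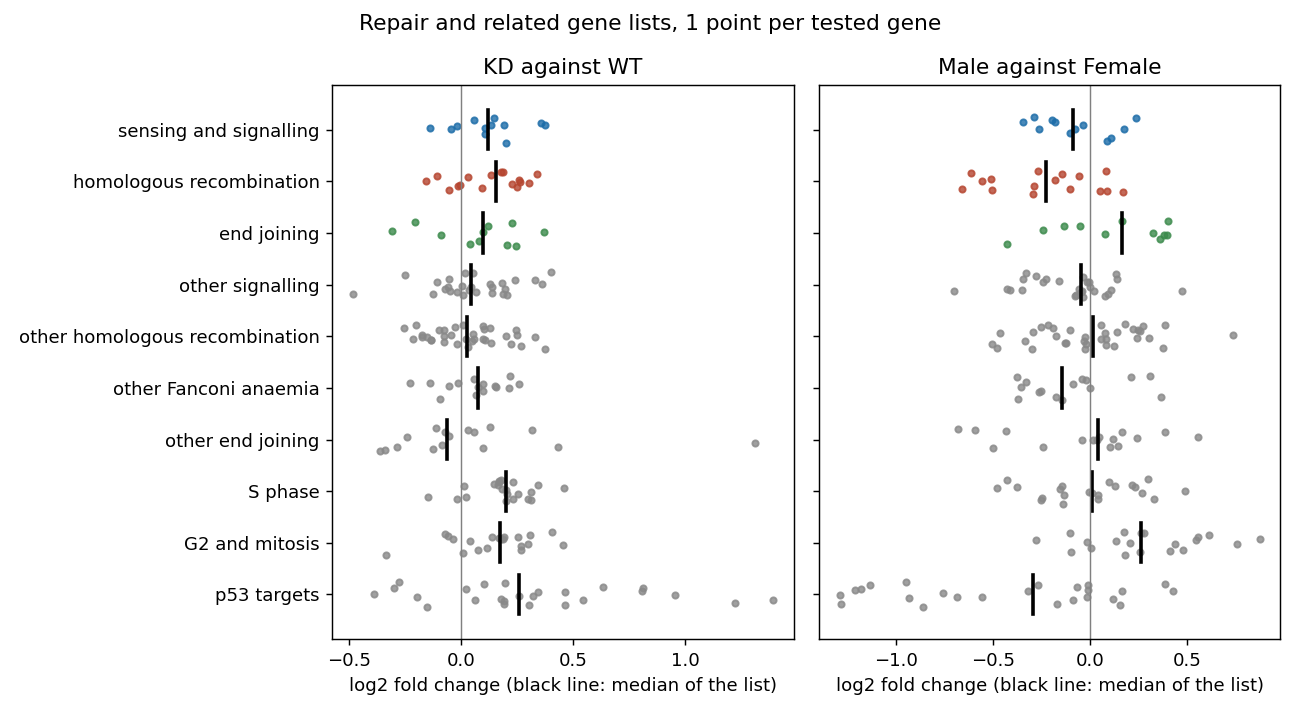
Log2 fold changes of the genes of each list (dots) with the list's median (line), in KD against WT and in Male against Female. The S phase list has a median of 0.20 in KD and 0.01 in Male, and the p53 target list one of 0.26 in KD and -0.29 in Male.

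Most of the cell cycle genes looked at were also higher in KD. Of 21 S phase genes 17 rose and 1 fell (median log2 fold change 0.20), and their summed level was 4663 to 4667 CPM in WT and 5351 to 5373 CPM in KD. Of 20 genes of G2 and mitosis 13 rose and 1 fell (median 0.17). These are 85.7% and 70% called, where 35.1% of all genes tested and 54.3% of those with an average log2 CPM of 1 or more were called. The summed level of the 16 recombination genes was 801 to 816 CPM in WT and 858 to 881 CPM in KD, and that of the 11 end joining genes was 556 to 565 CPM and 608 to 613 CPM. The part of the cell cycle genes in the repair genes' levels was not tested. In Male against Female the lists parted: 8 S phase genes were higher and 9 lower (median 0.01), 15 genes of G2 and mitosis were higher and 3 lower (median 0.26), against 49.8% called over all genes tested and 71.6% over those of average log2 CPM of 1 or more. The S phase sum was nonetheless 4093 to 4139 CPM in Female and 4302 to 4333 CPM in Male. That of G2 and mitosis was 4510 to 4574 CPM in Female and 5043 to 5093 CPM in Male. The recombination sum was 1233 to 1255 CPM in Female and 1034 to 1050 CPM in Male. Pcna, the clamp of the replication fork, rose in KD from 395, 396 and 407 CPM to 502, 489 and 495 CPM.

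The transcriptional targets of p53 are the genes that the product of Trp53 switches on after damage. Of 25 tested in KD against WT, 17 rose and 4 fell (median log2 fold change 0.26), and of 24 tested in Male against Female, 5 were higher and 13 lower (median -0.29). These are 84% and 75% called, against 35.1% and 49.8% of all genes tested, and 54.3% and 71.6% of those with an average log2 CPM of 1 or more. Phlda3, a p53 target that restrains AKT, stood at 19.8, 21.9 and 20.7 CPM in WT and at 48.2, 49.7 and 47.7 CPM in KD, higher by 1.22 on the log2 scale (edgeR adjusted p = 2.65e-08). Zmat3, a p53 target that encodes an RNA-binding protein, stood at 98.3, 99.4 and 106 CPM in WT and at 197, 193 and 197 CPM in KD. In both genes the KD samples lay far above the WT samples, while Bbc3, the gene of the death protein PUMA, was lower in Male than in Female by a log2 fold change of -1.28. Of 9 T cell markers, 1 rose and 6 fell in KD, or 77.8% called against the same backgrounds, with sums of 2752 to 2804 CPM in WT and 2424 to 2485 CPM in KD. Of the 9 markers of other cell types that could be tested there, 5 were lower in KD and none higher, with sums of 51.5 to 54.3 CPM in WT and 39.7 to 42.7 CPM in KD. In Male against Female, 1 of 9 T cell markers was higher and 5 lower, and 1 of 8 markers of other cells was higher and 2 lower. The part of these markers in the repair genes' differences was not tested.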

How the data were processed

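Total RNA of 12 samples, 3 in each of 4 groups, was sequenced, per the labels' protocols, after ribosomal RNA was removed, from stranded libraries. Raw counts by gene were deposited in 2 tables: WT and KD share 1, and Female and Male the other. The submitters' processing notes name bcl2fastq 2.20.0, HISAT2, StringTie, DESeq2 and the build mm10, without roles, so part of the processing that made the deposited counts is unknown, and the annotation and the use of strand in counting are not given in the sources used here. Values were whole numbers with different totals and were used as counts.

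Symbols were matched by identifier in GENCODE mouse release M21 (55227 of 55487 identifiers, 260 unmatched). Each table was tested by itself with edgeR 4.0.16 in R 4.3.3 (TMM, filterByExpr, quasi-likelihood F test, Benjamini-Hochberg, threshold 0.05), which was tested on simulated data. The SE was derived from the log2 fold change and its F statistic. CPM use TMM-scaled totals. Alternatives used DESeq2 1.42.0, limma 3.58.1 (voom), other scalings and filters, stricter thresholds, counts divided by 4, libraries thinned to the smallest, all 12 samples in 1 fit, removal of length and GC trends per sample, a replicate block and each sample left out. Alternative settings of a gene's call number 18, thresholds apart. Total counts of 78748647 to 110803318 per sample leave at least 200 counts for each member in each sample. WT and Male were not compared, since tables and batches differ. Genes named with full values were the 4 of each role with the smallest p in each comparison, the genes Trp53, Atm, Chek1, Brca1, Brca2, Prkdc, Xrcc5 and Xrcc6 and any whose log2 fold change reached 1, and of other lists up to 4 called genes in each direction; Chek2, Rbbp8, Lig4, Bard1 and Rad51c were further chosen after their values were seen. The member genes and all lists were chosen with earlier results of these data known. The result for 1 further gene is not reported here.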

Additional observations from a re-analysis of the deposited data

How the results depend on the processing

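Of the 22 genes called higher in KD, 14 kept their call in all 18 alternative settings, as did 1 of the 4 called lower (Rbbp8). In Male against Female, 10 of 12 higher and 13 of 17 lower calls were kept. Of the genes not called, 7 of 13 in KD and 8 of 10 in Male gained a call or turned in sign under some setting. Rad51b passed in 4 of 18 settings in KD, and in Male Mre11a passed in 4 and Xrcc2 in 3. When the log2 fold change had to reach 1 as well, 0 of the 39 genes were called in either comparison, and 808 and 1471 of all genes. At an adjusted p under 0.01, 16 of the 39 were called in KD. Leaving out 1 sample at a time gave 17 to 23 genes called in KD and 28 to 30 in Male against Female. The medians then ran from 0.0678 to 0.122 for end joining in KD, and in Male from -0.128 to -0.0558 for signalling, from -0.241 to -0.214 for recombination and from 0.129 to 0.18 for end joining. Other medians that moved by more than the spread between replicates kept their direction. In KD they were 0.187 for recombination and 0.127 for end joining with upper-quartile scaling, and 0.183 and 0.122 with the length and GC trends removed, or 0.183 and 0.123 with the replicate block added. In Male signalling they were -0.0612 with the log2 CPM minimum of 1, -0.0201 with the length and GC trends removed, -0.0206 with the block added and -0.111 with all 12 samples in 1 fit. In the same order they were -0.197, -0.125, -0.125 and -0.247 for recombination, with -0.239 when no filter was applied, and 0.19, 0.243 and 0.244 for end joining without the fit of 12 samples. The cause was not tested. Signs turned in genes that the main test did not call. In KD, upper-quartile scaling gave 0.0136 for Mdc1, 0.0161 for Rad51d and 0.0261 for Rad52. The log2 CPM minimum gave 0.00102 for Rad51d and 0.011 for Rad52, and counts divided by 4 gave 0.000889 for Rad52. Without the length and GC trends the 3 genes stood at 0.00902, 0.0209 and 0.0199, and with the block added at 0.00908, 0.0205 and 0.0206. Leaving out 1 sample gave -0.0337 to 0.00653 for Mdc1, -0.0564 to 0.0202 for Rad51d, -0.0473 to 0.0511 for Rad52 and -0.0246 to 0.157 for Nhej1 in KD, and -0.169 to 0.00918 for Nhej1 in Male. Rnf8 in Male stood at 0.137 without the length and GC trends, also with the block. Same-numbered samples did not deviate together (r of 0.013, -0.075 and 0.027 in WT and KD, and -0.0074, -0.056 and 0.031 in Female and Male). With 3 samples a group, these values cannot show whether same-numbered samples shared an origin. The replicate block gave 24 and 29 of the 39 genes called, and 6688 and 9740 of all genes. With 3 samples a group, differences near 0.1 on the log2 scale stood at the limit of what was called, as for Rad50, Polq, Lig3 and Brca2 in KD.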

Other observations

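Dntt, the gene of the polymerase that adds untemplated bases at V(D)J joints, was low in both groups of the editing experiment, at 0.804, 0.841 and 0.731 CPM in WT and at 2.13, 1.98 and 1.79 CPM in KD. It was the only one of the 92 further repair genes tested to pass a log2 fold change of 1 in KD (1.31 ± 0.17, SE; edgeR adjusted p = 0.000167), with no overlap between groups. In Male against Female its value of 0.38 did not pass. Parp3, a relative of Parp1, rose by 0.31 in KD and was higher by 0.24 in Male, and Polm, a gap-filling polymerase, fell by 0.36 in KD (log2, edgeR). Setd2, which encodes a histone methyltransferase that aids repair in gene bodies, stood at 241, 245 and 236 CPM in Female and at 173, 169 and 169 CPM in Male. Tdp2, which clears trapped topoisomerase II from ends, was lower in Male, at -0.59 (log2; edgeR adjusted p = 7.45e-08). Trp53inp1, a p53 target, stood at 452, 448 and 445 CPM in Female and at 201, 198 and 196 CPM in Male.

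The summed level of the 16 recombination genes was 1034 to 1050 CPM in Male and 801 to 816 CPM in WT, both male cells. That of the 12 signalling genes was 1042 to 1049 CPM in Male and 791 to 821 CPM in WT, and that of the 11 end joining genes 632 to 644 CPM and 556 to 565 CPM. These groups come from separate batches and tables and differ in electroporation, so no comparison was made.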
